A study of Mus musculus with 12 samples.

Results

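The genes described here are 10 genes of the ATF4 branch of the integrated stress response: *Atf4*, *Atf5*, *Ddit3*, *Asns*, *Chac1*, *Trib3*, *Psat1*, *Phgdh*, *Sesn2* and *Fgf21*. They were chosen by name, and all 10 are among the 24627 genes counted in the RNA-seq libraries of the *Xist*-TetOP lines. Of these, 9 were among the 13191 genes expressed highly enough to be tested, and *Fgf21* was not. Doxycycline (DOX) is an antibiotic that can hinder translation in mitochondria, and the question was whether these genes responded to it in the DOX libraries of each line.

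The lines are J1 mouse ES cells with 1 X and 1 Y chromosome, grown without feeder cells, in which DOX switches on *Xist* from a tetracycline-inducible promoter placed at its own locus. *Xist* FL makes the full-length RNA, *Xist* ΔA lacks the A repeat, which is needed for gene silencing, and *Xist* ΔB+C lacks the B and C repeats and was derived from *Xist* FL by CRISPR/Cas9. All cells were at day 2 of differentiation by LIF withdrawal, either in 1.5 μg/ml DOX or in medium lacking DOX (noDOX), and each of the 6 groups had 2 replicates, which the study calls biological duplicates. The labels name 1 line for each form of *Xist*, so the form of *Xist* and other differences between the lines cannot be told apart. DOX-treated cells without an inducible *Xist* were not analysed here, so within a line an effect of the drug and an effect of *Xist* RNA cannot be told apart.

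The integrated stress response begins with kinases that phosphorylate the translation factor eIF2α. General translation slows, while *Atf4* mRNA is translated more, so that ATF4 protein can rise without a matching rise of its mRNA. ATF4 then binds, with partner proteins of the bZIP family, to the promoters of genes for amino acid synthesis and transport, redox balance and the feedback control of the response itself. Blocked mitochondrial translation is one of the stresses known to set off this programme.

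The sequence to which ATF4 and its C/EBP partners bind has the core TGATGNAA, where N is any base. This core was searched on both strands in the 250 bases before the RefSeq transcription start (GRCm38.p6) of every gene with an entry, and 1134 of 32851 such windows held it (3.45%). All 10 genes had an entry, and the windows of *Asns*, *Chac1* and *Fgf21* held 1 match each. They are shown here because they place the known recognition sequence of ATF4 in the promoters of genes whose levels follow, with the match in capitals and each window written 5′ to 3′ on the strand of its gene. The window of *Asns* (chr6:7693210-7693459, minus strand) has its match 23 bases before the start, that of *Chac1* (chr2:119350992-119351241, plus strand) at 193 bases and that of *Fgf21* (chr7:45615491-45615740, minus strand) at 139 bases, the last 2 on the opposite strand.
Asns: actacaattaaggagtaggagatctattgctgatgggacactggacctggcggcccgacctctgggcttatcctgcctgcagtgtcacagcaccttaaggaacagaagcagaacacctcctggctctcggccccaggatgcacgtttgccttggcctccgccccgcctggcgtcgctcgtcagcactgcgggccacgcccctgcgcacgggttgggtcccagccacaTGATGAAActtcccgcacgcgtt
Chac1: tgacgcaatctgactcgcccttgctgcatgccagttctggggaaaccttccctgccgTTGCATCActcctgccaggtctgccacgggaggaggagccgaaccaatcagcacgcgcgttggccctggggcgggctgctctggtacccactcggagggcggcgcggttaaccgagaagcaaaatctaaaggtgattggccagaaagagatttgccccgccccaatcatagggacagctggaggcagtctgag
Fgf21: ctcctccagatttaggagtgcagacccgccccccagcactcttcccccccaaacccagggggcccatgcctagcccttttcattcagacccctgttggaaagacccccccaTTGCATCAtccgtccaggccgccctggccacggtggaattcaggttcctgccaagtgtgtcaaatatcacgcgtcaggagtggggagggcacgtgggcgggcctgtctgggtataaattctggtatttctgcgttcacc
In *Trib3* the core lies just after the start, on the opposite strand, in the 30 bases at chr2:152344028-152344057 (minus strand).
Trib3: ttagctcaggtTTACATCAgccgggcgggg
The windows of *Atf4*, *Atf5*, *Ddit3*, *Psat1*, *Phgdh* and *Sesn2* held no match to these letters. A match is a description of the sequence and not evidence of binding.

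The libraries held between 31337490 and 41240470 counts, and *Xist* stood at 2.44 to 8.38 CPM (the counts of a gene for each 1000000 counts of its library) without DOX and at 557 to 1830 CPM with DOX. The *Xist* ΔB+C noDOX replicate 1 library, whose deposited name contains the word DOX, held 2.56 CPM of *Xist* and was used as labelled. X-linked genes took 2.88% and 2.76% of the counts in *Xist* FL noDOX (replicates 1 and 2) and 1.99% and 1.73% with DOX. The *Xist* ΔA shares were 2.93% and 2.75% without DOX and 2.90% and 2.62% with it, and those of *Xist* ΔB+C 2.86% and 2.67% without and 2.05% and 1.64% with it. While 1 μg of RNA went into the other libraries, replicate 2 of *Xist* ΔB+C DOX received 100 ng and a protocol for low input. The 6 markers of pluripotent cells were over 1 CPM in every library, with summed levels of 2914 to 4351 CPM. The 6 markers of primitive endoderm summed to 20.9 to 56.8 CPM, and the 6 of fibroblasts to 9.84 to 52.9 CPM, with 2 of the latter at 0 in some library.

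Per kb of exon, the mean level over the 12 libraries was highest for the serine synthesis genes *Phgdh* (129 CPM per kb) and *Psat1* (113 CPM per kb), followed by *Atf4* (106 CPM per kb), *Asns* (73.5 CPM per kb) and *Sesn2* (46.4 CPM per kb). *Atf5* (16.8 CPM per kb), *Chac1* (14.1 CPM per kb), *Trib3* (10.7 CPM per kb) and *Ddit3* (5.11 CPM per kb) lay lower, and *Fgf21* was near the floor at 0.181 CPM per kb. The serine synthesis genes were thus the most abundant per length, and the stress effectors *Ddit3* and *Fgf21* the least.

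None of the 9 tested genes passed an adjusted p of 0.05 in the DOX response of *Xist* FL or *Xist* ΔA, and 1, *Psat1*, passed in *Xist* ΔB+C, where it fell. Over all genes, the shares that passed were 1.24% (*Xist* FL), 0.00758% (*Xist* ΔA, where the 1 gene was *Xist* itself) and 2.98% (*Xist* ΔB+C). The log2 (fold change) was positive for 6 of the 9 genes in *Xist* FL, for 8 in *Xist* ΔA and for 6 in *Xist* ΔB+C, with medians of 0.17, 0.26 and 0.20, beside medians of -0.011, -0.0015 and -0.0044 over all tested genes. The median in *Xist* ΔB+C was -0.049 without noDOX replicate 1 and -0.16 without DOX replicate 2, and that in *Xist* FL fell to between 0.050 and 0.12 when any 1 of its libraries was left out. The libraries with the same replicate number deviated together in all groups, and a fit with that number as a block passed 14%, 0.0227% and 21.8% of all genes in these lines. With the block, 2 of the 9 genes passed in *Xist* FL, while 3 did in *Xist* ΔB+C and none did in *Xist* ΔA.

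At an unadjusted p under 0.05, edgeR picked 2 of the 9 genes in *Xist* FL (*Psat1* and *Sesn2*), beside 13.5% of all genes, 3 in *Xist* ΔA (*Asns*, *Psat1* and *Phgdh*), beside 1.14%, and 3 in *Xist* ΔB+C (*Psat1*, *Phgdh* and *Sesn2*), beside 18.8%. With the block it picked 5 of the 9 in each line. In *Xist* ΔA all 5 were higher with DOX (*Atf4*, *Asns*, *Chac1*, *Psat1* and *Phgdh*), beside 5.07% of all genes. In *Xist* FL 4 were higher (*Atf4*, *Chac1*, *Trib3* and *Sesn2*) and *Psat1* was lower, beside 30.4%, and in *Xist* ΔB+C 3 were higher (*Ddit3*, *Trib3* and *Sesn2*) and *Psat1* and *Phgdh* were lower, beside 36.1%. DESeq2 and limma-voom called 0 of the 9 in *Xist* ΔA, and in *Xist* FL they called 1 and 0.

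**Figure D1:**
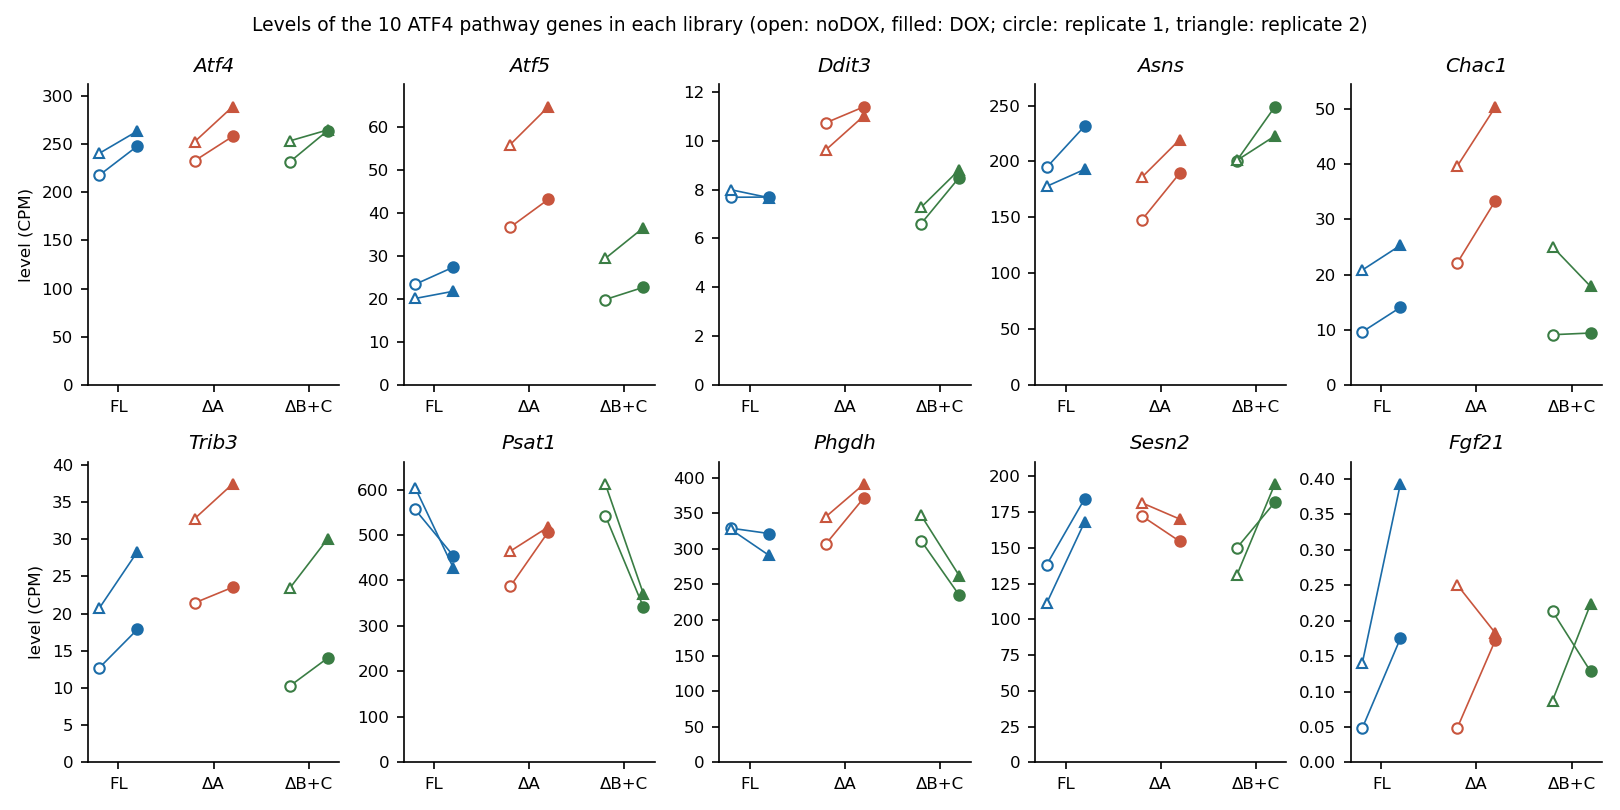
Level of each of the 10 genes in CPM (vertical axis, from 0, a different scale for each gene) in the 12 libraries, by line (horizontal axis), with a line joining the noDOX (open) and DOX (filled) libraries of the same replicate number. With DOX, *Psat1* is lower in both *Xist* FL pairs and both *Xist* ΔB+C pairs and higher in those of *Xist* ΔA, while *Chac1* and *Trib3* differ more between replicates than between treatments.

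Among the transcription factors, *Atf4*, the effector of the pathway, was measured in *Xist* FL at 218 and 240 CPM without DOX and 248 and 263 CPM with DOX (replicates 1 and 2). In *Xist* ΔA it was at 232 and 252 CPM without DOX and 258 and 289 CPM with it, and in *Xist* ΔB+C at 231 and 253 CPM without and 264 and 265 CPM with it. In CPM, both DOX libraries lay above both noDOX libraries in each of the 3 lines, an order held by 22.9% of all genes for *Xist* FL, 6.13% for *Xist* ΔA and 23% for *Xist* ΔB+C. The rise in CPM within a pair of the same number was between 4.52% and 14.4%. It was smallest in replicate 2 of *Xist* ΔB+C. There the scaling (TMM) factors of the tests, which CPM leave out, were 0.982 without DOX and 1.01 with it. With these factors that rise is smaller. Replicate 1 of *Xist* ΔB+C DOX had a factor of 1.02, which brings it close to noDOX replicate 2. The order in *Xist* ΔB+C is thus sensitive to the scaling. The log2 (fold change) averaged over the 3 lines was 0.15 (95% interval 0.026 to 0.28), with an adjusted p of 0.175 in edgeR, and of 0.0116 with the block. With the block, that call held in all 12 fits that left out 1 library, with adjusted p up to 0.0438.

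*Atf5*, a factor of the same family tied to mitochondrial stress, stood at 23.4 and 20.1 CPM in *Xist* FL noDOX and 27.4 and 21.8 CPM with DOX. The *Xist* ΔA libraries held more of it, with 36.7 and 55.9 CPM without DOX and 43.2 and 64.7 CPM with DOX, and those of *Xist* ΔB+C held 19.9 and 29.4 CPM without and 22.7 and 36.6 CPM with DOX. Each DOX library was above its partner of the same number, by 8.26% to 24.2%, but the groups overlapped in every line because the replicates lay further apart than the treatments. Its mean response was 0.22 ± 0.18 (SE) on the log2 scale, with an adjusted p of 0.553 and of 0.371 with the block.

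*Ddit3*, which encodes the pro-apoptotic factor CHOP, was low throughout. In *Xist* FL it was at 7.69 and 7.99 CPM without DOX and 7.69 and 7.67 CPM with DOX, and in *Xist* ΔA at 10.7 and 9.63 CPM without and 11.4 and 11.0 CPM with it. In *Xist* ΔB+C it was at 6.60 and 7.27 CPM without DOX and 8.49 and 8.81 CPM with it. DOX libraries lay above noDOX libraries without overlap in *Xist* ΔA and *Xist* ΔB+C, with log2 (fold change) of 0.18 and 0.28, and not in *Xist* FL (-0.036), and no response passed in either fit. *Atf5* shares exon sequence on the opposite strand with *Il4i1* and *Nup62*, and *Ddit3* with *Mars*. The counting did not use strand, so strand could not assign reads from such overlaps to 1 gene. Whether such reads were counted for either gene was not examined. *Nup62* and *Mars*, at means of 252 and 264 CPM, had mean DOX responses of 0.097 and 0.012 on the log2 scale, neither of which passed (adjusted p of 0.497 and 0.964).

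Of the genes for amino acid synthesis, *Asns* makes asparagine from aspartate and is among the best known targets of ATF4. It stood at 195 and 178 CPM in *Xist* FL noDOX and 232 and 193 CPM with DOX. In *Xist* ΔA it was at 148 and 186 CPM without DOX and 190 and 220 CPM with it, and in *Xist* ΔB+C at 201 CPM in both libraries without DOX and 249 and 223 CPM with it. It was higher with DOX in all 6 pairs, by 8.57% to 28.5%. DOX lay above noDOX without overlap in *Xist* ΔA (6.13% of all genes) and *Xist* ΔB+C (23%). The mean response was 0.24 (95% interval 0.060 to 0.42), with an adjusted p of 0.135. With the block the adjusted p was 0.0389, and that call was lost in 8 of the 12 fits that left out 1 library, including the fit without the low input library (adjusted p of 0.0674).

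*Psat1* and *Phgdh*, which encode enzymes of the pathway from a glycolytic intermediate to serine, had another order, with DOX libraries below noDOX libraries in *Xist* FL and *Xist* ΔB+C. *Psat1* fell from 556 and 604 CPM to 455 and 428 CPM in *Xist* FL, which passed with the block alone, and from 543 and 612 CPM to 342 and 371 CPM in *Xist* ΔB+C. In *Xist* ΔA its levels were 387 and 464 CPM without DOX and 507 and 518 CPM with DOX. The groups did not overlap in any of the lines, and 25.4% of all genes had DOX below noDOX without overlap in *Xist* FL, as did 20% for *Xist* ΔB+C. The log2 (fold change) was -0.40 ± 0.11 (SE) in *Xist* FL, with an adjusted p of 0.152 that became 0.0095 with the block, and -0.73 ± 0.11 in *Xist* ΔB+C, with an adjusted p of 0.0135, or 0.000203 with the block. In *Xist* ΔA it was 0.31 ± 0.11, with an adjusted p of 1 (unadjusted p of 0.0209 in edgeR) and of 0.564 with the block. Leaving out 1 library ended the *Xist* ΔB+C call in 3 of 4 fits without the block (all but the fit without noDOX replicate 1, with adjusted p up to 0.0982) and in none with it, where the response without the low input library was -0.75 (adjusted p of 0.00408). The *Xist* FL call was lost without either of its replicate 2 libraries.

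*Phgdh* was measured at 329 and 327 CPM in *Xist* FL noDOX and 321 and 291 CPM with DOX, and its response of -0.11 ± 0.10 passed in neither fit. In *Xist* ΔB+C it was at 311 and 347 CPM without DOX and 235 and 262 CPM with it, and in *Xist* ΔA at 307 and 345 CPM without and 372 and 391 CPM with it. DOX libraries were thus below noDOX libraries in *Xist* FL and *Xist* ΔB+C and above them in *Xist* ΔA, as for *Psat1*, an order shown by 1.02% of all genes. The response was -0.44 ± 0.10 in *Xist* ΔB+C, with an adjusted p of 0.0606 that became 0.0045 with the block, and 0.27 ± 0.10 in *Xist* ΔA, with an adjusted p of 1 (unadjusted p of 0.03 in edgeR). The *Xist* ΔB+C call with the block was lost without noDOX replicate 2 (adjusted p of 0.0717).

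*Chac1* encodes an enzyme that degrades glutathione, and *Trib3* a pseudokinase that restrains ATF4 in a feedback loop. *Chac1* stood at 9.65 and 20.8 CPM in *Xist* FL noDOX and 14.1 and 25.3 CPM with DOX, at 22.2 and 39.7 CPM in *Xist* ΔA noDOX and 33.4 and 50.4 CPM with DOX, and at 9.13 and 25.1 CPM in *Xist* ΔB+C noDOX and 9.44 and 17.9 CPM with DOX. *Trib3* stood at 12.7 and 20.8 CPM in *Xist* FL noDOX and 17.9 and 28.3 CPM with DOX, at 21.4 and 32.8 CPM in *Xist* ΔA noDOX and 23.5 and 37.4 CPM with DOX, and at 10.3 and 23.4 CPM in *Xist* ΔB+C noDOX and 14.0 and 30.1 CPM with DOX. DOX and noDOX libraries overlapped in every line for both genes, since replicate 2 was the higher one in every group. Within pairs, *Trib3* was higher with DOX in all 6, by 9.78% to 40.6%, and *Chac1* in 5, the exception being replicate 2 of *Xist* ΔB+C, where it was 28.7% lower. The mean response of *Trib3* was 0.34, with a 95% interval of -0.31 to 0.99 and an adjusted p of 0.558, and of 0.15 to 0.53 and 0.0157 with the block. That call was lost without *Xist* FL noDOX replicate 2, without *Xist* ΔA noDOX replicate 2 or without the low input library (adjusted p up to 0.0550). *Chac1* passed in neither fit (mean response 0.16, adjusted p of 0.833, and 0.144 with the block).

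*Sesn2* encodes sestrin 2, which restrains the growth kinase complex mTORC1 when amino acids are short. Its levels were 138 and 111 CPM in *Xist* FL noDOX and 184 and 168 CPM with DOX, and 150 and 131 CPM in *Xist* ΔB+C noDOX and 182 and 195 CPM with DOX. In *Xist* ΔA they were 172 and 181 CPM without DOX and 155 and 170 CPM with DOX. In CPM the groups did not overlap in any line. DOX lay above noDOX in *Xist* FL (22.9% of all genes) and *Xist* ΔB+C (23%) and below it in *Xist* ΔA (18.5%). In *Xist* ΔA the scaling (TMM) factors of the tests, which CPM leave out, were 1.01 and 1.01 without DOX and 0.982 and 0.981 with it. The order in *Xist* ΔA thus depends on the scaling. The log2 (fold change) was 0.49 ± 0.12 (SE) in *Xist* FL, with an adjusted p of 0.104 that became 0.0105 with the block, 0.39 ± 0.12 in *Xist* ΔB+C, with 0.121 and 0.0206, and -0.084 ± 0.12 in *Xist* ΔA, which passed in neither fit. Leaving out 1 library ended the call with the block in 3 of 4 fits in each of *Xist* FL and *Xist* ΔB+C, among them the fit without the low input library (0.29, adjusted p of 0.164). Averaged over the lines the response was 0.27, with an adjusted p of 0.0693, and of 0.0089 with the block, which held in all 12 such fits.

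*Fgf21*, a secreted hormone that muscle and liver release under mitochondrial stress, was hardly detected. Its counts were 2 and 5 in *Xist* FL noDOX, 6 and 15 in *Xist* FL DOX, 2 and 8 in *Xist* ΔA noDOX, 7 and 6 in *Xist* ΔA DOX, 8 and 3 in *Xist* ΔB+C noDOX and 5 and 7 in *Xist* ΔB+C DOX. Such counts are too few to show a response, and none was tested.

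**Figure D2:**
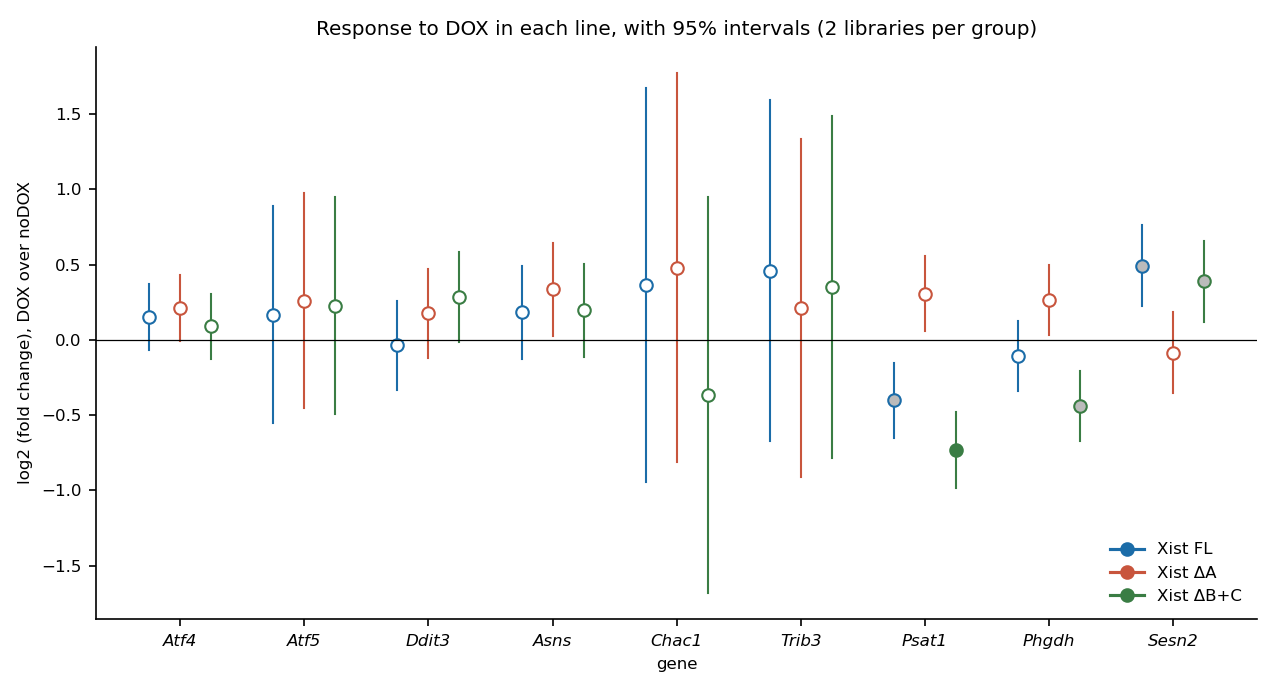
Log2 (fold change) of DOX over noDOX (vertical axis) for the 9 tested genes (horizontal axis) in the 3 lines, with 95% intervals of the fit without the replicate block as bars. The point filled in the colour of its line, *Psat1* in *Xist* ΔB+C at -0.73, passed an adjusted p of 0.05, grey points passed only with the replicate number as a block, and open points in neither fit.

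Averaged over the 3 lines, 1 of the 9 genes passed, *Psat1* at -0.27 (adjusted p of 0.0483), beside 4.08% of all genes. That call was lost in all 12 fits that left out 1 library (adjusted p up to 0.156). With the block it was 5 of the 9, beside 23.8% of all genes: *Atf4*, *Asns*, *Trib3* and *Sesn2* rose and *Psat1* fell. *Atf4*, *Atf5*, *Asns* and *Trib3* were higher with DOX in each of the 6 pairs of the same number, an order held by 5% of all genes. Those 4 genes thus had positive responses in all lines, *Ddit3* and *Chac1* in all but *Xist* FL and *Xist* ΔB+C, respectively, and the direction of *Psat1*, *Phgdh* and *Sesn2* differed between *Xist* ΔA and the other lines.

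The difference of the DOX response between lines was tested directly. Between *Xist* ΔB+C and *Xist* ΔA it passed for *Psat1* alone, at -1.04 on the log2 scale (95% interval -1.39 to -0.69, adjusted p of 0.0476), beside 0.19% of all genes. That call was lost in all 8 fits that left out 1 library (adjusted p up to 0.212). With the block it passed for *Psat1* (adjusted p of 0.000726, and held in all 8 fits that left out 1 library) and for *Phgdh* (-0.71, adjusted p of 0.114 and of 0.0064 with the block, held in 7 of 8), beside 9.23% of all genes. The *Phgdh* call was lost without *Xist* ΔB+C noDOX replicate 2 (adjusted p of 0.0511). For *Sesn2* the difference was 0.47, with an adjusted p of 0.312 and of 0.0639 with the block.

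Between *Xist* ΔA and *Xist* FL no gene of the 13191 passed, and 7.45% had an unadjusted p under 0.05 (3 of the 9 genes), while with the block 3.32% passed, among them *Psat1* at 0.71 (adjusted p of 0.242, and 0.0092 with the block). That call was lost in 3 of 8 fits that left out 1 library: *Xist* FL DOX replicate 2, *Xist* ΔA noDOX replicate 1 or *Xist* ΔA DOX replicate 1. Between *Xist* ΔB+C and *Xist* FL no gene passed in either fit. There, 0.751% of all genes and 1 of the 9 (*Phgdh*) had an unadjusted p under 0.05, and with the block 3.95% and 3 of the 9 (*Chac1*, *Psat1* and *Phgdh*), with intervals without the block of -0.68 to 0.021 for *Psat1*, -0.66 to -0.0012 for *Phgdh* and -0.37 to 0.25 for *Atf4*. For *Atf4* the differences between lines lay between -0.12 and 0.061, none past the threshold in either fit, and for *Asns* between -0.14 and 0.15. The X-linked share of counts was lower with DOX in every pair of the 3 lines, by less in the *Xist* ΔA pairs (2.93% to 2.90% and 2.75% to 2.62%) than in those of *Xist* FL and *Xist* ΔB+C, where *Psat1* was lower with DOX, and the part of X-linked silencing in this was not tested. All 10 genes are autosomal.

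Without DOX the lines already differed in these genes. *Xist* ΔA had less *Psat1* than *Xist* FL, with a log2 difference of -0.47 (adjusted p of 0.0319), and more *Sesn2*, with one of 0.49 (0.036), beside 9.85% of all genes passing. With the block 6 of the 9 genes passed, beside 33.4% of all genes, the other 4 being higher in *Xist* ΔA: *Atf5* by 1.02 (adjusted p of 0.0692 without the block and 0.0308 with it), *Ddit3* by 0.36 (0.122 and 0.0412), *Chac1* by 1.04 (0.313 and 0.0011) and *Trib3* by 0.69 (0.436 and 0.0049). With the block, the calls of *Chac1* and *Psat1* held in all 4 fits that left out 1 library, and that of *Ddit3* in none. Without the block, the call of *Psat1* held in none of the 4 such fits and that of *Sesn2* in 1. All 4 *Xist* ΔA libraries, with and without DOX, lay above the other 8 libraries for *Atf5* and *Ddit3*, as they did for 8.29% of all genes. *Nup62* and *Mars*, which share exon sequence with these, differed between *Xist* ΔA and *Xist* FL by 0.16 and 0.093, neither of which passed.

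*Xist* ΔB+C, made from *Xist* FL, did not differ from it in any of the 9 genes in either fit (0.0227% of all genes passed, and 0.986% with the block), and none of the 9 had an unadjusted p under 0.05, as 5.83% of all genes did. Its log2 differences lay between -0.17 for *Ddit3* and 0.19 for *Atf5*, with an interval of -0.25 to 0.25 for *Psat1*. Against *Xist* ΔA it had more *Psat1*, with a difference of 0.46 (adjusted p of 0.0421), and less *Ddit3*, with one of -0.53 (0.0472), beside 6.69% of all genes, and with the block 5 genes passed, beside 28.1% of all genes, with *Chac1* (-0.91), *Trib3* (-0.73) and *Sesn2* (-0.31) lower in *Xist* ΔB+C. Of these 5 calls those of *Chac1* and *Psat1* held in all 4 fits that left out 1 library, and that of *Sesn2* in none. Without the block, the calls of *Psat1* and *Ddit3* held in none of the 4 such fits.

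For some of these genes the difference between replicate numbers was larger than that between DOX and noDOX. Replicate 2 was higher than replicate 1 by 0.95 on the log2 scale for *Chac1* (95% interval 0.74 to 1.17, adjusted p of 8.72e-05), by 0.82 for *Trib3* (0.63 to 1.01, adjusted p of 7.88e-05) and by 0.11 for *Atf4* (adjusted p of 0.0243), beside 46.4% of all genes passing. For these 3 genes replicate 2 was the higher in all 6 groups, an order held by 19.5% of all genes. The calls for *Chac1* and *Trib3* held in all 12 fits that left out 1 library, and that for *Atf4* in 5 of them. On the scale of log2 (CPM + 1), the difference was 0.58 to 1.36 for *Chac1* and 0.59 to 1.12 for *Trib3*. For *Atf5* it was -0.32 to 0.66, negative in both *Xist* FL groups and positive in the other 4. *Asns*, *Ddit3* and *Sesn2* had differences of 0.0036, 0.0097 and -0.049, none of which passed. The labels give no culture date or plate for a replicate number, so what the number stands for is not given in the sources used here.

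**Figure D3:**
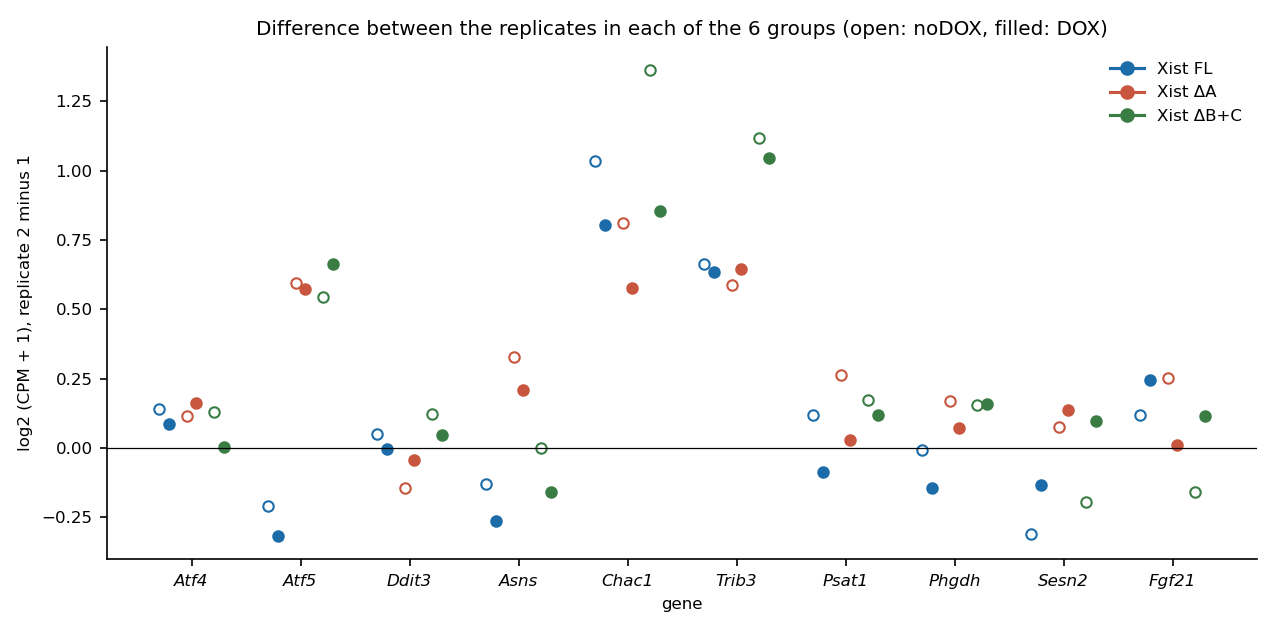
Difference of log2 (CPM + 1) between replicate 2 and replicate 1 (vertical axis) for the 10 genes (horizontal axis), with 1 point for each of the 6 groups, open for noDOX and filled for DOX. *Chac1* lies between 0.58 and 1.36 and *Trib3* between 0.59 and 1.12, while *Asns*, *Ddit3* and *Sesn2* lie on both sides of 0.

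Across the 12 libraries, *Chac1* and *Trib3* followed each other (Pearson r of 0.90), and *Psat1* was related to *Phgdh* (0.74) and inversely to *Sesn2* (-0.83). When the mean of each noDOX and DOX pair was subtracted, only the difference within each pair remained. On these values r was 0.96 for *Atf4* with *Asns* and 0.89 for *Atf4* with *Atf5* and with *Trib3*. For *Psat1* it was 0.96 with *Phgdh* and -0.91 with *Sesn2*. These are descriptions over 12 libraries that share lines and replicate numbers. After the subtraction the values of a pair mirror each other, so the 12 values hold only 6 separate differences. A direction shared by the genes then raises r by itself. A scaling difference within a pair is shared by all genes, since these CPM leave out the TMM factors. The same limits hold for the genes listed last, which were picked for their high r. The 5 other genes most like the mean of the 9 genes across libraries were *Nupr1* (r of 0.95), *Vps28* (0.94), *Ppan* (0.93), *Tbcc* (0.92) and *Grhpr* (0.91), and after subtracting pair means *Nudc* (0.98), *Copz1* (0.97), *Nlrc4* (0.97), *Gmpr2* (0.96) and *Sf3b3* (0.96).

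Upstream of ATF4, the genes of the eIF2α kinases and their sensors gave 1 called gene of 8 tested in the response averaged over the lines, *Eif2ak4*, and a median of 0.0055, beside -0.0054 over all genes. Of all genes 4.08% passed. With the block 1 of these 8 rose and 1 fell, while of all genes 10.3% rose and 13.5% fell. *Eif2ak4*, which encodes GCN2, the kinase that senses uncharged tRNA, was lower with DOX, at -0.26 on average (adjusted p of 0.0487, and 0.0059 with the block). Its levels were 24.0 and 25.2 CPM in *Xist* FL noDOX and 20.2 and 17.9 CPM with DOX, 29.1 and 27.9 CPM in *Xist* ΔA noDOX and 26.2 and 28.0 CPM with DOX, and 26.8 and 24.0 CPM in *Xist* ΔB+C noDOX and 19.8 and 20.2 CPM with DOX. Among the 10 genes of eIF2, eIF2B and the eIF2α phosphatases (median -0.015) only *Eif2s3x*, an X-linked gene for a subunit of eIF2, was called, at -0.32 on average (adjusted p of 0.0178), -0.55 in *Xist* ΔB+C (0.024) and, for *Xist* ΔA, 0.037 (1). With the block 1 of these 10 rose and 2 fell in the averaged response.

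Of 14 bZIP partners and feedback genes (median 0.049), 5 rose and 1 fell with the block in the response averaged over the lines. Of all genes 10.3% rose and 13.5% fell. Without the block only *Ddit4* was called, beside 4.08% of all genes in that averaged response. It encodes REDD1, another restraint on mTORC1, and its levels were 90.2 and 79.7 CPM in *Xist* FL noDOX and 145 and 134 CPM with DOX, 122 and 103 CPM in *Xist* ΔA noDOX and 106 and 102 CPM with DOX, and 91.6 and 71.4 CPM in *Xist* ΔB+C noDOX and 167 and 163 CPM with DOX. *Ddit4* rose by 0.71 in *Xist* FL (adjusted p of 0.042) and by 0.99 in *Xist* ΔB+C (0.0080), and was at -0.080 in *Xist* ΔA (1). The difference between the last 2 responses was 1.07, with an adjusted p of 0.0714 and of 0.000585 with the block. Like *Sesn2*, the other mTORC1 regulator, *Ddit4* thus had higher estimates with DOX in *Xist* FL and *Xist* ΔB+C. In *Xist* ΔA neither gene passed in either fit.

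Other genes for amino acid supply gave few calls. Of 12 amino acid transporters (median 0.017), *Slc7a3*, an X-linked gene for a carrier of cationic amino acids, was at -1.17 on the log2 scale in *Xist* ΔB+C (adjusted p of 0.0038) and at -0.59 on average (0.0038), and was at -0.037 in *Xist* ΔA. With the block 2 of these 12 rose and 1 fell on average. None of 10 genes of serine, glycine and one-carbon metabolism (median 0.014) or of 12 genes of amino acid synthesis and turnover (median 0.045) was called without the block. With it 1 rose and 3 fell in the first list and 1 rose and 1 fell in the second, while of all genes 10.3% rose and 13.5% fell. In the first list the 2 smallest p-values were those of the thymidylate synthase gene *Tyms*, at -0.18 (adjusted p of 0.107), and of *Aldh1l2*, a mitochondrial folate enzyme gene, at -0.34 (0.138), and in the second those of the proline synthesis gene *Pycr1*, at 0.36 (0.324), and of *Bcat1*, which encodes an enzyme of branched-chain amino acid turnover, at -0.11 (0.398). Both *Tyms* and *Aldh1l2* passed with the block, as did *Pycr1*, and *Bcat1* did not.

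Genes of protein synthesis and quality control were not called without the block in the response averaged over the lines. With the block, 10.3% of all genes rose and 13.5% fell, beside which the counts of these lists stand. The medians were 0.00096 for 21 cytosolic tRNA synthetases and related genes (1 rose and 2 fell with the block), 0.011 for 17 mitochondrial tRNA synthetases (4 rose and 1 fell), -0.031 for 13 mitochondrial chaperones and proteases (2 rose and 2 fell), -0.10 for 21 genes of the unfolded protein response of the endoplasmic reticulum (none rose and 8 fell) and 0.078 for 11 heat shock and oxidative stress genes (1 rose and 1 fell). The genes with the smallest p-values in these lists had mean responses of -0.15 for *Iars*, -0.12 for *Hars*, -0.12 for *Iars2*, 0.25 for *Aars2*, -0.16 for the protease subunit gene *Clpx*, -0.11 for *Hspd1*, which encodes the mitochondrial chaperone HSP60, -0.13 for *Pdia6*, -0.18 for *Hsp90b1*, -0.16 for *Txnrd1* and 0.27 for the haem oxygenase gene *Hmox1*. Of 6 tested genes for secreted factors and receptors of the stress response (median -0.095), none was called without the block, and 1 rose and 1 fell with it. The 2 with the smallest p-values were *Fgf15*, at -0.35 (adjusted p of 0.154), and *Vldlr*, at -0.30 (0.214).

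In *Xist* ΔA no gene of these lists was called in either fit. There 20 of 21 cytosolic tRNA synthetases and related genes had a positive log2 (fold change), beside 6536 of the 13191 tested genes, with a median of 0.11. In *Xist* ΔB+C the median was -0.15, and 3 of the 21 were positive, beside 6485 of all tested genes, and 6 fell with the block, beside 12% of all genes. The genes encoded by mitochondrial DNA, whose translation DOX can hinder, were not analysed here.

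**Figure D4:**
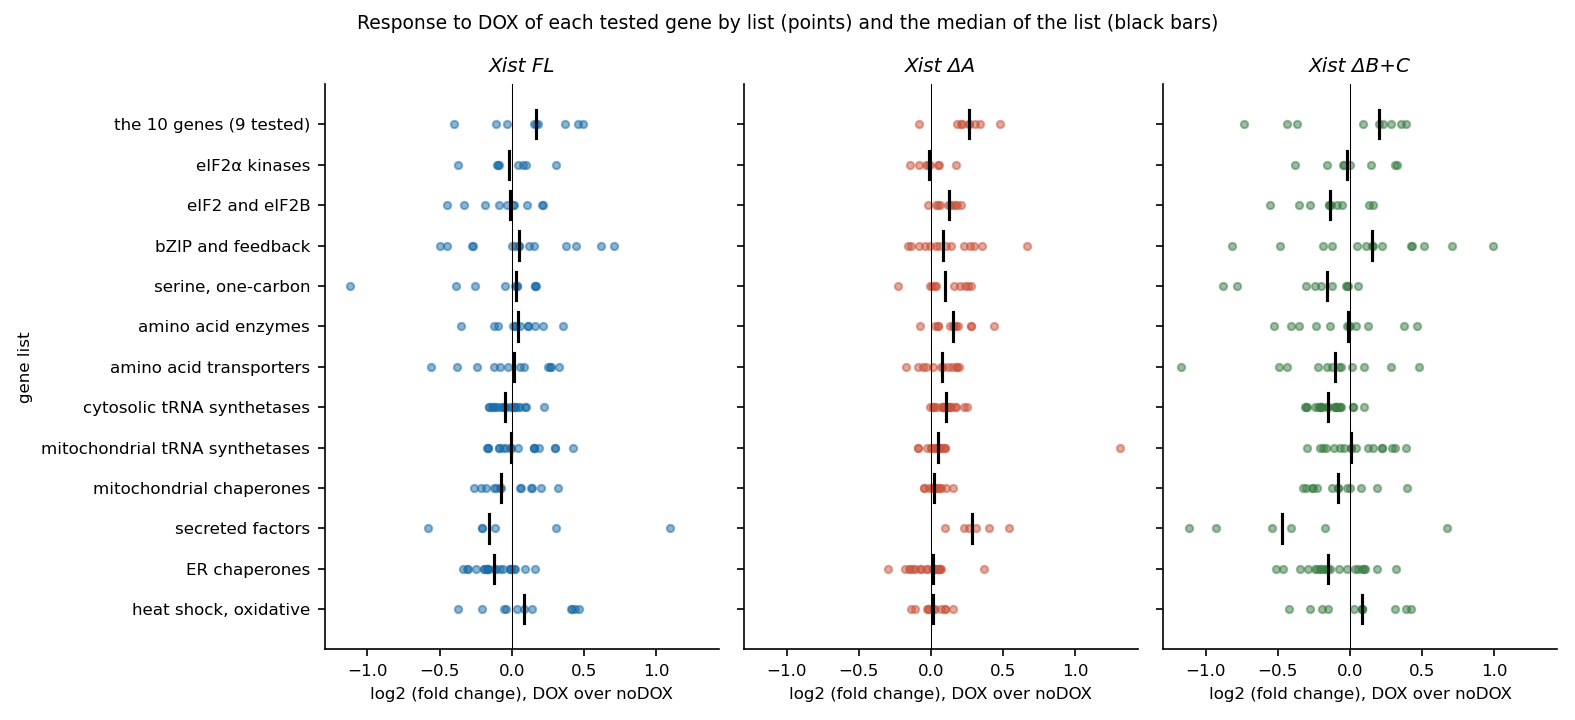
Log2 (fold change) of DOX over noDOX (horizontal axis) of each tested gene (points) of 13 gene lists (vertical axis) in the 3 lines, with the median of each list as a black bar. The 9 genes described here have medians of 0.17, 0.26 and 0.20, and the lists lie close to 0 with single genes far out, such as *Slc7a3* at -1.17 in *Xist* ΔB+C.

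Markers of other cell types were compared in the same way. No marker was called in the response averaged over the lines without the block. The pluripotent markers *Sox2* (0.43) and *Sall4* (0.16), the primitive endoderm markers *Gata4* (0.41) and *Sox7* (0.30) and the fibroblast markers *Thy1* (-0.067) and *Col1a1* (-0.14) had the smallest p-values of their lists, and 3 of 6 pluripotent markers rose with the block, beside 10.3% of all genes. The summed primitive endoderm markers were at 40.2 and 27.1 CPM in *Xist* ΔB+C noDOX and 56.8 and 42.6 CPM with DOX, and at 25.9 and 21.5 CPM in *Xist* FL noDOX and 26.4 and 32.8 CPM with DOX. In *Xist* ΔA they were at 29.1 and 26.5 CPM without DOX and 25.7 and 20.9 CPM with it. Their part in the responses of *Psat1*, *Phgdh* and *Sesn2* was not tested. In these bulk libraries, fewer cells that express a gene and less RNA per cell cannot be told apart.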

How the data were processed

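RNA-seq of day 2 cells was available for the 6 groups, 2 libraries each. The authors mapped the reads to the mm10 genome with Tophat 2.1.0 and counted the read pairs on exons of each gene with featureCounts 1.5.1, without a strand option, and the deposited values are these counts, not normalized. Here, the count rows of the 10 genes were found by symbol. CPM are counts divided by the library total and multiplied by 1000000. The orders of libraries, the changes within pairs and the correlations use CPM without the TMM factors given below.

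The 13191 genes that reached 1 CPM in 6 or more libraries entered the quasi-likelihood test of edgeR 4.0.16 in R 4.3.3 (robust fit, 1 mean for each of the 6 groups, all 12 libraries), with TMM factors from expressed autosomal genes (0.981 to 1.02), and p-values were adjusted over all of them by the Benjamini-Hochberg method. Alternatives were limma-voom (limma 3.58.1), DESeq2 1.42.0, other scalings and filters, the compared lines alone, and leaving out each library. The replicate number of the labels was the block of a second fit. Differences between replicates 2 and 1 across autosomal genes correlated with r of 0.40 to 0.84 in all 15 pairs of groups, so the numbers were taken to pair the libraries. Leaving out each library with the block kept was added after seeing the data. The steps were tested on simulated counts, and no 2 libraries held identical values. P-values measure only the spread between the 2 replicates of the groups, pooled over the 6 groups and moderated across genes. With the block, the shift shared by the libraries of a replicate number is taken out first. Those p-values measure only the spread left after it. Gene lengths came from the GENCODE annotation and promoters from RefSeq GRCm38.p6.

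The genes and the gene lists were chosen with earlier results of these data known. Besides the 10 genes and *Xist*, each list gave the genes past the threshold in a DOX response or, with none, the 2 with the smallest p-value in the mean response, and likeness was Pearson's r with the mean standardised log2 CPM of the 9 tested genes. *Gdf15* was named outside the rule for the lists, because it rose with the block. Figures were drawn with matplotlib.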

Additional observations from a re-analysis of the deposited data

Results flagged for a closer look

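The response of *Psat1* to DOX differed between lines by the test of the difference itself, at -1.04 on the log2 scale between *Xist* ΔB+C and *Xist* ΔA (edgeR, adjusted p of 0.0476, and 0.000726 with the replicate block). In each of the 3 lines its DOX and noDOX libraries did not overlap, with lower levels under DOX in *Xist* FL, lower ones in *Xist* ΔB+C and higher ones in *Xist* ΔA. *Phgdh* had the same opposite orders, with a difference of -0.71 between *Xist* ΔB+C and *Xist* ΔA (adjusted p of 0.114, and 0.0064 with the block). These orders of *Psat1* and *Phgdh* were held by 1.02% of all genes. In CPM, *Sesn2* had the reverse orders, with higher levels under DOX in *Xist* FL, higher ones in *Xist* ΔB+C and lower ones in *Xist* ΔA. Its order in *Xist* ΔA depends on the scaling. The difference of its response between *Xist* ΔB+C and *Xist* ΔA was 0.47 (adjusted p of 0.312, and 0.0639 with the block).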

How the results depend on the processing

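With the replicate block, the number of called genes among the 9 went from 0 to 2 (*Xist* FL), 1 to 3 (*Xist* ΔB+C), 1 to 5 on average, 0 to 1 for the difference between *Xist* ΔA and *Xist* FL, 1 to 2 between *Xist* ΔB+C and *Xist* ΔA, and, without DOX, 2 to 6 between *Xist* ΔA and *Xist* FL and 2 to 5 between *Xist* ΔB+C and *Xist* ΔA. The block changed no other call. DESeq2 gave 1, 3, 3, 1 and 2 for the first 5 of these. On average, TMM factors from all genes, limma-voom and the filter of 5 CPM each gave 0. Library totals gave 0 for the difference between *Xist* ΔB+C and *Xist* ΔA. The compared lines alone gave 0 in *Xist* ΔB+C and for that difference, and, without DOX, 1 between *Xist* ΔA and *Xist* FL and 0 between *Xist* ΔB+C and *Xist* ΔA, where no filter gave 1. Leaving out 1 library gave 0 to 1 in *Xist* ΔB+C, on average (where the 1 was *Sesn2*, without *Xist* FL noDOX replicate 1), and between *Xist* ΔA and *Xist* FL without DOX, 0 in every fit for both comparisons of *Xist* ΔB+C with *Xist* ΔA, and 2 to 5 for the replicate difference, where 5 came without either *Xist* FL DOX library. When 1 library was left out, the medians of the 9 genes lay between 0.050 and 0.12 (*Xist* FL), 0.15 and 0.44 (*Xist* ΔA) and -0.16 and 0.31 (*Xist* ΔB+C).

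Signs reversed in fits that called neither value. For the replicate difference, *Asns* was at -0.0021 with library totals. When 1 library was left out, the range over the fits without the block spanned 0 for *Atf5* (-0.000302 to 0.33 for *Xist* FL, -0.066 to 0.59 for *Xist* ΔA and -0.16 to 0.56 for *Xist* ΔB+C), *Chac1* (-0.12 to 1.02 for *Xist* FL, -0.94 to 0.56 for *Xist* ΔB+C and -0.028 to 0.47 on average) and *Trib3* (-0.17 to 0.54 for *Xist* ΔA and -0.31 to 1.09 for *Xist* ΔB+C). For the replicate difference it was -0.054 to 0.062 for *Asns*, -0.019 to 0.051 for *Ddit3* and -0.087 to 0.011 for *Sesn2*. With the block, *Trib3* stayed positive in every fit that left out 1 library in *Xist* ΔA (0.068 to 0.34) and *Xist* ΔB+C (0.14 to 0.63). The same held for *Atf5* in *Xist* ΔA and for *Chac1* in *Xist* FL and on average. The ranges of *Atf5* in *Xist* FL and *Xist* ΔB+C and of *Chac1* in *Xist* ΔB+C still spanned 0. The cause of the reversals was not tested. With 2 libraries per group, an outlying library cannot be told from its partner, and the depth allowed no test of *Fgf21*.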
